A study of Arabidopsis thaliana with 6 samples.

Results

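The genes described here encode subunits of the chloroplast NDH complex from the plastid genome, and there are 10 of them: ndhA, ndhC, ndhD, ndhE, ndhF, ndhG, ndhH, ndhI, ndhJ and ndhK. They were chosen by their symbol in the annotation of the array's probe sets. Each had 1 probe set. The array holds 22746 probe sets that are not controls, of which 17695 were bright enough to be tested, and all 10 ndh probe sets were among these. The remaining plastid ndh gene, ndhB, was left out because it lies in the plastid genome in 2 copies.

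The NDH complex of the chloroplast is a relative of mitochondrial complex I that sits in the thylakoid membrane, binds photosystem I and passes electrons from ferredoxin to plastoquinone. It works in cyclic electron flow and in chlororespiration, the transfer of electrons to oxygen in the thylakoid, and part of its subunits are encoded in the plastid genome. Many plastid genes are transcribed as operons into long RNAs that are then cut, trimmed and edited, so that genes of one operon can differ in the RNA that accumulates.

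The samples were whole Arabidopsis thaliana seedlings, pif1-2 and Wt (Col-0), grown in the dark at 21 °C for 4 days on MS medium after 4 days in the cold and 1 hour of light that starts germination, with 3 biological replicates of each genotype on Affymetrix ATH1 arrays. PIF1, a basic helix-loop-helix protein and partner of phytochrome, holds back seed germination and the making of chlorophyll in darkness. The mutant is 1 insertion line (Salk_072677), in which the labels call PIF1 mRNA very low, and no probe set carries PIF1's name, so the genotype rests on the labels. Not all label details match: the locus printed in the series title is not the one RefSeq lists for PIF1, and the allele number in another label field differs from sample to sample, so groups were taken from the sample titles. The question here is whether ndh RNA depends on PIF1 in etiolated seedlings.

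Signals are scaled MAS5 intensities, which have no unit, and are not comparable between probe sets. Array medians of the deposited signal were 184 to 199, and once scaled, 21.7% to 23.7% of signals were below 50. pif1-2 replicate 3 stood apart on the first principal component (47.9, against -13.2 to -5.23 on the other 5 arrays), and its ratio of 3-prime to 5-prime signal for actin, a measure of RNA integrity and labelling length, was 8.07, against 3.53 to 5.17. On the third component pif1-2 replicate 2 was the distant array (42.6, against -17.8 to -1.97), and it had the lowest 25S rRNA signal, 545.5 against 5877 to 13936. Every ndh result is therefore also given without these arrays where it depends on them.

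All 10 ndh genes had a lower mean on the log2 scale in pif1-2 than in Wt, as did 49.9% of all probe sets, and none of them passed the test over all probe sets. The median log2 difference, pif1-2 minus Wt, was -0.44 over the 10 genes and 0.00095 over all probe sets tested. The genes fell into a group with larger differences (ndhK, ndhJ and ndhG, each at 0.561 to 0.621 of the Wt mean), a group in between (ndhH, ndhF and ndhE) and a group with mean ratios of 0.923 to 0.962 (ndhA, ndhC, ndhD and ndhI). With limma and Benjamini-Hochberg adjustment 0 of 10 were called, as were 0.0113% of all probe sets. At an unadjusted p under 0.05, 5 of 10 were lower and 0 higher, beside 4.36% and 3.31% of all probe sets. In 6 of 10 all pif1-2 arrays lay below all Wt arrays, as in 6.58% of all probe sets, and in 0 of 10 all lay above, beside 6.49%. Since seedlings were extracted whole, fewer plastid-rich cells and less plastid RNA per cell cannot be told apart.

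**Figure D1:**
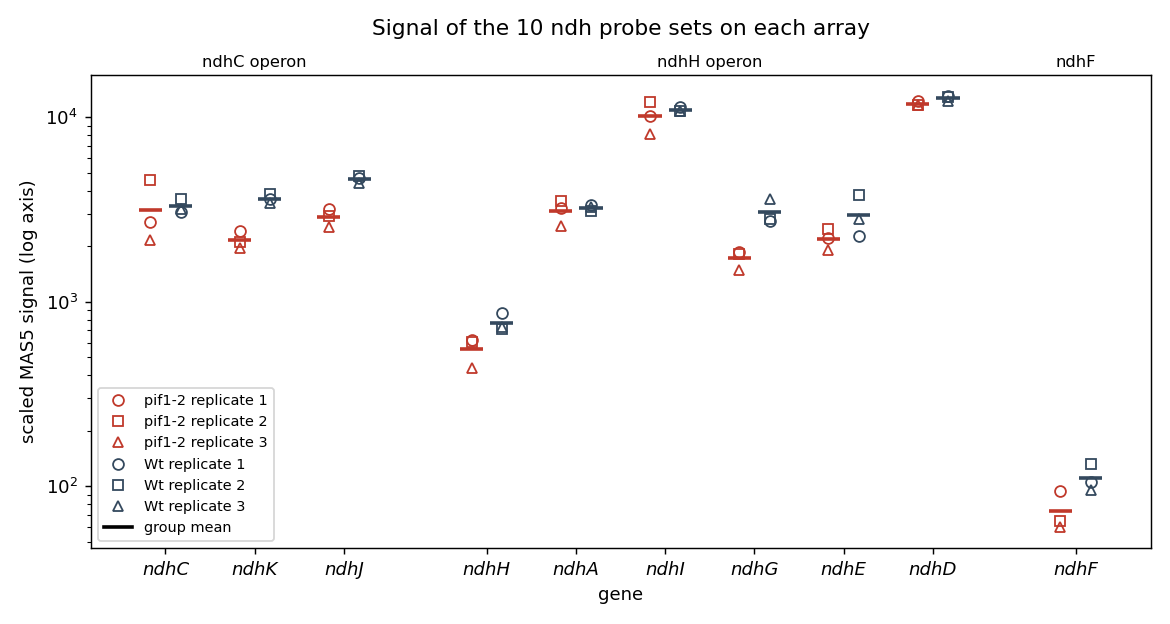
Scaled MAS5 signal on a log axis for the 10 ndh probe sets, with pif1-2 left of Wt for each gene, 1 point per array and a bar at the group mean (n = 3 each). The groups are clearly apart for ndhK, ndhJ and ndhG, meet closely for ndhD and ndhF, and overlap for ndhC, ndhA, ndhI and ndhE.

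The ndhC operon holds ndhC, ndhK and ndhJ, in the order of transcription. ndhK encodes a peripheral-arm subunit that carries an iron-sulfur cluster beside the quinone site. Its signal was 2428, 2096 and 1945 on the pif1-2 arrays, against 3584, 3857 and 3418 on the Wt arrays. The highest pif1-2 array lay well below the lowest Wt array, and each group varied little, with a coefficient of variation of 11.4% in pif1-2 and 6.12% in Wt. Its log2 difference was -0.75 (SE 0.13, 95% interval -1.04 to -0.45, limma adjusted p = 0.152), the 15th smallest p of all 17695 probe sets.

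ndhJ encodes another peripheral-arm subunit, the counterpart of bacterial NuoC. It had signals of 3185, 2910 and 2534 in pif1-2, against 4709, 4781 and 4399 in Wt. The groups did not overlap, and pif1-2 replicate 3 was again the lowest array. This gave a log2 difference of -0.69 (SE 0.13, 95% interval -0.98 to -0.40, limma adjusted p = 0.164).

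ndhC, a small membrane subunit and the first gene of the operon, had mutant arrays on both sides of Wt. Its signal was 2710, 4576 and 2171 in pif1-2, against 3072, 3622 and 3181 in Wt. Replicate 2 was the highest of all 6 arrays and the other pif1-2 arrays were the lowest, so that the coefficient of variation was 40.0% in pif1-2 and 8.84% in Wt. The log2 difference was -0.13 (SE 0.22, 95% interval -0.62 to 0.36). It was -0.43 without pif1-2 replicate 2 (limma unadjusted p = 0.02, adjusted p = 0.616) and 0.10 without pif1-2 replicate 3.

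The ndhH operon begins with ndhH and goes on with ndhA, ndhI, ndhG, ndhE, psaC and ndhD. ndhH encodes the peripheral-arm subunit that forms the quinone pocket together with the ndhK product. It had 621.6, 605.2 and 437.9 in pif1-2, against 869.5, 710.2 and 726.3 in Wt. The groups did not overlap, and pif1-2 replicate 3 lay far below the other arrays of the mutant. ndhH thus had a log2 difference of -0.47 (SE 0.17, limma unadjusted p = 0.0177, adjusted p = 0.588), or -0.31 without that array (unadjusted p = 0.0694). Without Wt replicate 1, the highest array, it was -0.38 (unadjusted p = 0.0664).

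ndhA, whose membrane subunit sits where the arms of the complex meet, had signals of 3229, 3517 and 2582 in pif1-2, against 3323, 3096 and 3276 in Wt. The mutant arrays lay on both sides of the Wt arrays. Its log2 difference was -0.067 (SE 0.14, 95% interval -0.38 to 0.24), the smallest of the 10, and 0.061 without pif1-2 replicate 3.

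ndhI, which encodes a ferredoxin-like subunit with iron-sulfur clusters, showed a similar spread. The signals were 10164, 12100 and 8128 in pif1-2, against 11355, 10814 and 10745 in Wt. The Wt arrays were close together, with a coefficient of variation of 3.05%, and the pif1-2 arrays spread around them, with 19.6%. The log2 difference was -0.13 (SE 0.15, 95% interval -0.46 to 0.19), and 0.016 without pif1-2 replicate 3.

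ndhG, a membrane subunit, showed the widest difference of the 10. It had 1850, 1822 and 1479 in pif1-2, against 2747, 2818 and 3613 in Wt. All mutant arrays lay well below the Wt arrays, and Wt replicate 3 was the highest. The log2 difference was -0.82 (SE 0.15, 95% interval -1.16 to -0.49, limma adjusted p = 0.152).

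ndhE, the smallest of the membrane subunits, had signals of 2207, 2467 and 1911 in pif1-2, against 2270, 3794 and 2809 in Wt. Wt replicate 1 lay among the pif1-2 arrays, and the Wt coefficient of variation was 26.1%, against 12.7% in pif1-2. On the log2 scale the difference was -0.40 (SE 0.18, limma unadjusted p = 0.049, adjusted p = 0.65). Without Wt replicate 2, the highest array, it was -0.21 (limma unadjusted p = 0.272), and without pif1-2 replicate 3 it was -0.31 (limma unadjusted p = 0.154). The unadjusted p of ndhE was under 0.05 in 2 of the 6 fits that leave out 1 array.

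ndhD encodes a large antiporter-like membrane subunit, and its start codon is made by RNA editing. The signals were 12193, 11656 and 11633 in pif1-2, against 12982, 12950.4 and 12227 in Wt. The groups did not overlap, but the highest mutant array and the lowest Wt array were almost equal. Its log2 difference of -0.10 (SE 0.11, 95% interval -0.35 to 0.14) had the smallest error of the 10 genes.

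ndhF lies apart from both operons, and in Arabidopsis its transcription is known to depend on the sigma factor SIG4. Its antiporter-like product sits at the far end of the membrane arm. The signal was 94.2, 64.8 and 60.2 in pif1-2, against 105, 131 and 95.8 in Wt. These values are close to the limit of 50 below which probe sets were not tested, and the groups nearly touched. The log2 difference was -0.52 (SE 0.29, 95% interval -1.15 to 0.11, limma unadjusted p = 0.098), on a scale to which 16 is added and which understates differences of dim probe sets.

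**Figure D2:**
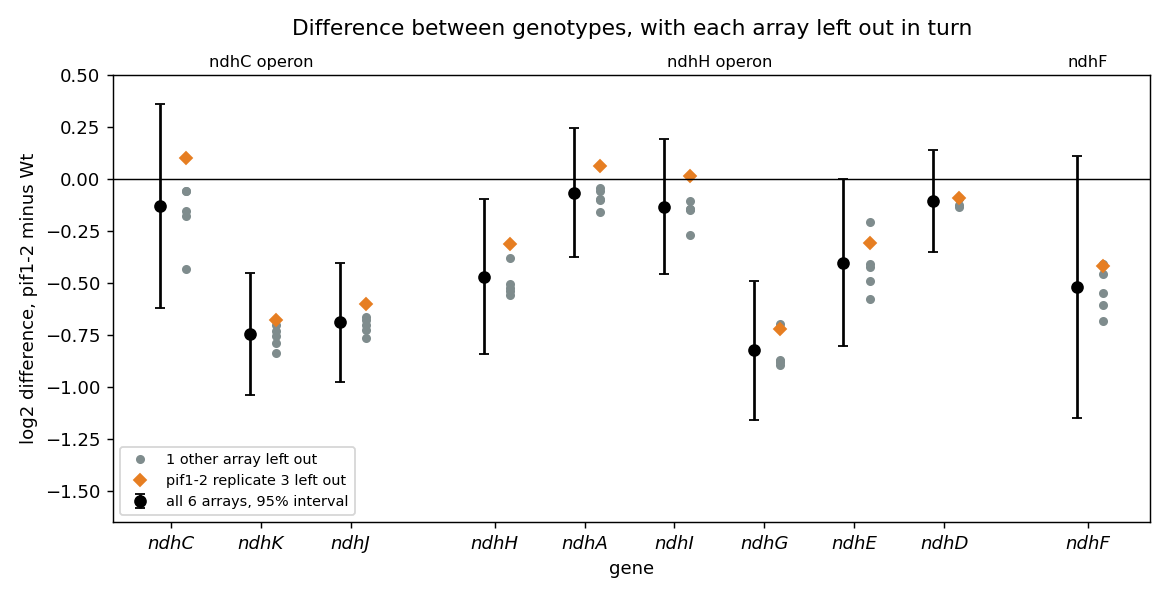
Log2 difference, pif1-2 minus Wt, for the 10 ndh genes. Black points with bars give the value over all 6 arrays with its 95% interval, grey points the values with 1 other array left out, and orange diamonds those without pif1-2 replicate 3. ndhK, ndhJ and ndhG stayed between -0.89 and -0.60 whichever array was left out, whereas ndhC, ndhA and ndhI crossed 0 without pif1-2 replicate 3.

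The difference was carried by all mutant arrays and most of all by replicate 3. Relative to the Wt mean of each gene, the median log2 value of the 10 ndh genes was -0.28 on pif1-2 replicate 1, -0.28 on replicate 2 and -0.66 on replicate 3, against 0.0065, 0.037 and -0.051 on the Wt arrays. pif1-2 replicate 3 was the lowest of all 6 arrays for 10 of 10 ndh genes, beside 24.3% of all probe sets. It was also the array with the highest actin 3-prime to 5-prime ratio, whose part in the result was not tested. Without it the median over the ndh genes was -0.31. Then ndhK, ndhJ and ndhG were the 3 genes with an unadjusted p under 0.05 in limma (0.000562, 0.000806 and 0.000887), with an adjusted p = 0.419 each. pif1-2 replicate 1 lay below the lowest Wt array for 9 of 10 genes, beside 24.3% of all probe sets, and pif1-2 replicate 2 for 6 of 10, beside 25.9%. Replicate 2 was the array on which ndhC, ndhI and ndhA were above the Wt mean, by 0.48, 0.14 and 0.12 on the log2 scale.

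By operon, the median log2 difference was -0.69 for the 3 genes of the ndhC operon and -0.27 for the 6 ndh genes of the ndhH operon, beside -0.52 for ndhF. The median of the ndhC operon is the value of ndhJ, with ndhK at -0.75 and ndhC at -0.13. In the ndhC operon the array medians were -0.54, -0.67 and -0.86 in pif1-2, against -0.012, 0.093 and -0.073 in Wt. In the ndhH operon they were -0.20, -0.18 and -0.51 in pif1-2, against 0.035, -0.041 and -0.036 in Wt. The pif1-2 array medians of the ndhC operon are again those of ndhJ. The array means of the operons lay closer together. On the pif1-2 arrays they were -0.46, -0.32 and -0.78 for the ndhC operon and -0.26, -0.19 and -0.55 for the ndhH operon. The ndhH operon's median rested in part on single arrays: it was -0.18 without Wt replicate 2 and -0.38 without pif1-2 replicate 2. Each operon held genes with large and genes with small differences, ndhK beside ndhC in one and ndhG beside ndhA and ndhI in the other.

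By place in the complex, the 4 subunits of the peripheral arm (ndhH, ndhI, ndhJ and ndhK) had a median log2 difference of -0.58 and a range of -0.75 to -0.13, and in 3 of 4 all pif1-2 arrays lay below all Wt arrays. The 6 membrane subunits (ndhA, ndhC, ndhD, ndhE, ndhF and ndhG) had a median of -0.27 and a range of -0.82 to -0.067, and 3 of 6 had no overlap in that direction, beside 6.58% of all probe sets. The ranges of both arms thus covered nearly the same values.

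Neighbouring genes of an operon were set against each other within each array, to describe whether their signals differed by the same amount. The ratios were taken after the data were seen and use the same signals as the differences above, so they add no separate evidence. Such ratios were not computed for other pairs of probe sets. The log2 ratio of ndhC to ndhK, relative to its Wt mean, was 0.30, 1.26 and 0.30 in pif1-2, against -0.083, 0.048 and 0.035 in Wt. All mutant arrays were above all Wt arrays, most of all replicate 2. By contrast, the ratio of ndhK to ndhJ was -0.035, -0.12 and -0.024 in pif1-2, against -0.038, 0.046 and -0.0080 in Wt, and the groups overlapped.

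Within the ndhH operon the ratio of ndhI to ndhG was 0.60, 0.87 and 0.60 in pif1-2, against 0.19, 0.086 and -0.28 in Wt. The ratio of ndhH to ndhA was -0.29, -0.45 and -0.46 in pif1-2, against 0.14, -0.045 and -0.095 in Wt. In both pairs the mutant and Wt arrays did not overlap. The ratios of ndhA to ndhI, ndhG to ndhE and ndhE to ndhD (the last pair with psaC between them) overlapped between the genotypes. Over the 7 pairs compared, the exact two-sided permutation test gave p = 0.1 for the 3 pairs without overlap, the smallest value that 3 arrays against 3 allow, and p = 0.3 for the other 4, or 0.233 and 0.3 after Benjamini-Hochberg adjustment. This test therefore cannot reach 0.05 here.

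**Figure D3:**
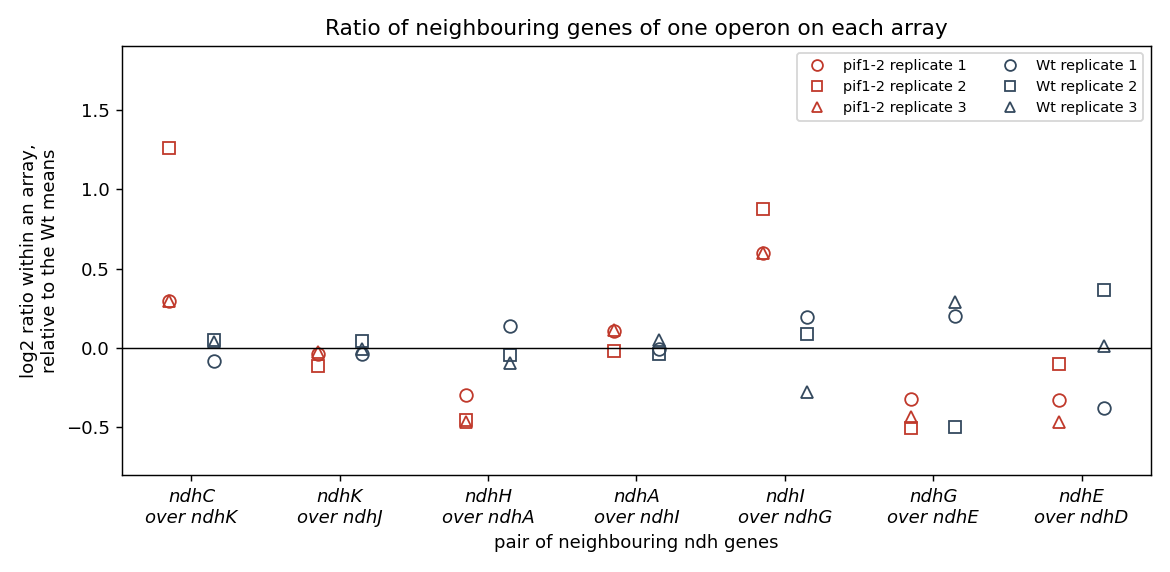
Log2 ratio of the probe sets of 7 pairs of neighbouring ndh genes on each array, as the difference from the mean Wt ratio, with pif1-2 left of Wt. The mutant arrays lie above the Wt arrays for ndhC over ndhK and ndhI over ndhG and below them for ndhH over ndhA, and the log2 ratio of ndhK to ndhJ lies between -0.12 and 0.046 on all 6 arrays.

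Genes beside the ndh genes were also measured. psaC, which lies between ndhE and ndhD and encodes the iron-sulfur subunit of photosystem I, had 4876, 4538 and 4646 in pif1-2, against 5742, 6171 and 5522 in Wt. The groups did not overlap, and the log2 difference of -0.31 (SE 0.12, limma unadjusted p = 0.0243, adjusted p = 0.636) was between those of its neighbours ndhE and ndhD. rps15, a ribosomal protein gene next to ndhH, had 1326, 621.3 and 1572 in pif1-2, against 1701, 1728 and 1579 in Wt. The mutant arrays were all lower, but replicate 3 nearly reached the Wt arrays and replicate 2 was far below the rest (log2 difference -0.60, SE 0.27, adjusted p = 0.637).

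On the other side of the ndhH operon, ccsA, a gene for attaching heme to cytochromes that follows ndhD, had a log2 difference of -0.22 (SE 0.14). rpl32, a ribosomal protein gene between ccsA and ndhF, had one of 0.29 (SE 0.17). For both genes the arrays of the genotypes overlapped. These 4 neighbours, none of which lies beside the ndhC operon, were therefore spread from -0.60 to 0.29. At an unadjusted p under 0.05 in limma, 2 of 4 were lower, beside 4.36% of all probe sets.

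Among all plastid-encoded genes the ndh genes were spread from near the lower end to the middle of the order. Of the 69 plastid-encoded probe sets tested, ndhG, ndhK and ndhJ ranked 3rd, 5th and 6th from the lowest log2 difference. The other genes among the lowest 6 were psbD (-0.98), petG (-0.83) and psbA (-0.78), which encode the D2 protein of photosystem II, a small cytochrome b6f subunit and the D1 protein. ndhF, ndhH and ndhE were ranked 13, 15 and 16, and ndhI, ndhC, ndhD and ndhA were ranked 35, 36, 40 and 46. The other 59 plastid-encoded probe sets had a median of -0.12 and 40 of 59 were below 0. At an unadjusted p under 0.05, 12 of them (20.3%) were lower and 2 higher, beside 4.36% and 3.31% of all probe sets. In 15 of 59 (25.4%) all pif1-2 arrays lay below all Wt arrays, beside 6.58% of all probe sets. The difference between the ndh genes and other plastid genes was not tested.

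**Figure D4:**
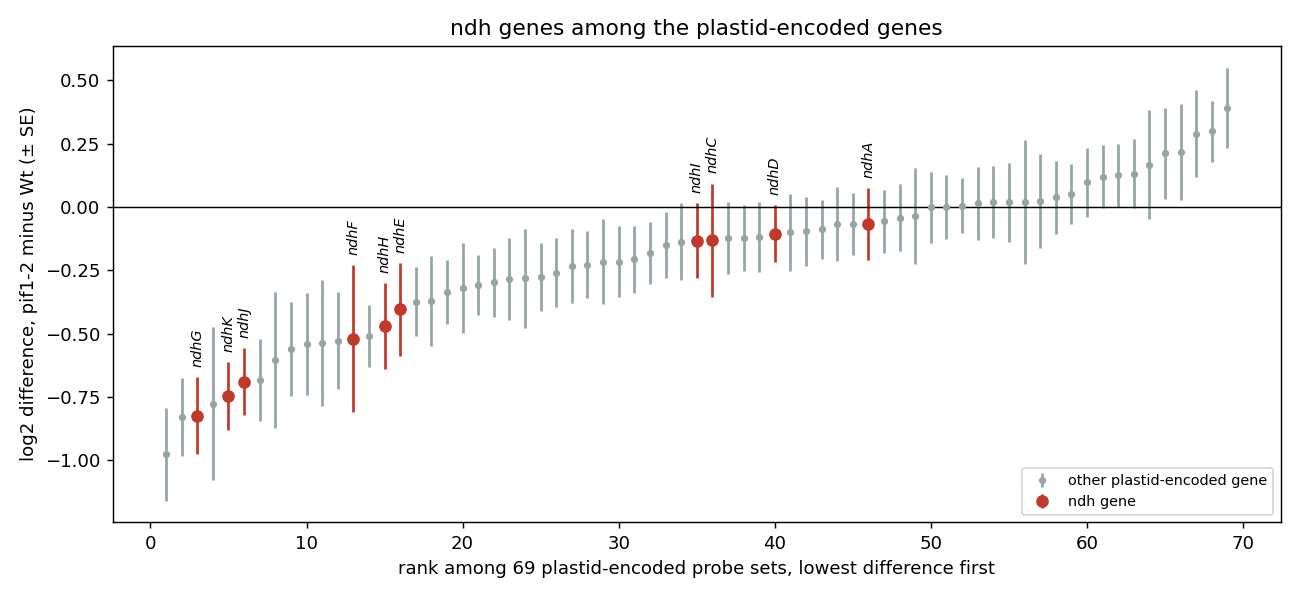
Log2 difference, pif1-2 minus Wt, with its SE (bars) for 69 plastid-encoded probe sets in order, lowest first, with the 10 ndh genes in red. All ndh genes lie below 0, ndhG, ndhK and ndhJ near the lower end and ndhI, ndhC, ndhD and ndhA in the middle of the order.

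The plastid genes for the photosystems, the cytochrome complex, the ATP synthase and Rubisco had a median of -0.21 over 33 genes, and at an unadjusted p under 0.05 there were 9 lower and 0 higher. For the 26 plastid genes with roles in gene expression or elsewhere the median was -0.062, with 3 lower and 2 higher. Of all probe sets, 4.36% were lower and 3.31% higher at that threshold. None of either list passed with limma over all probe sets. The plastid-encoded RNA polymerase, which transcribes most photosynthesis genes, was measured by its 4 genes, of 13 polymerase and sigma factor genes listed: rpoA, rpoB, rpoC1 and rpoC2 had log2 differences of 0.22 (SE 0.19), -0.035 (SE 0.19), 0.019 (SE 0.16) and -0.12 (SE 0.14). None of the 4 had an unadjusted p under 0.05 with limma, and no sigma factor had a named probe set.

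Few nuclear genes of the NDH complex could be matched by name to a probe set of 1 gene. The annotation lists no gene for 8730 of 22746 probe sets, so a gene without a match may still be on the array. Of 20 nuclear genes of the complex and its photosystem I linkers, 3 were matched, and all 3 were tested. NdhN, a peripheral subunit, had a signal of 304 ± 25.5 in pif1-2 and 355 ± 41.7 in Wt (SD, n = 3 each, log2 difference -0.21, SE 0.16). NdhL, a membrane subunit, had 581 ± 135 in pif1-2 and 618 ± 30.7 in Wt (-0.11, SE 0.17), and NdhS, which belongs to the ferredoxin-binding site, 974 ± 161 in pif1-2 and 1015 ± 154 in Wt (-0.062, SE 0.17). For all 3 the genotypes overlapped, and none had an unadjusted p under 0.05 with limma.

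Of 25 genes listed as factors that assemble the complex or process and edit ndh transcripts, 10 had a named probe set and 7 were tested. The median log2 difference of the 7, PAM68 included, was -0.33. None passed with limma over all probe sets. At an unadjusted p under 0.05 there was 1 lower and 0 higher, beside 4.36% and 3.31% of all probe sets. That gene was PAM68, which was on the list although it is an assembly factor of photosystem II in the thylakoid, with a relative that acts on NDH. It had 311, 209.5 and 290.1 in pif1-2, against 372, 364 and 408 in Wt (-0.49, SE 0.18, adjusted p = 0.586). CRR42, needed for NDH accumulation, was at -0.43 (SE 0.22), and CRR28 and CRR21, pentatricopeptide proteins that edit ndh transcripts, were at -0.33 (SE 0.30) and 0.27 (SE 0.36), both from signals near 100 or below. The other 3 were CRR41, an assembly factor, at -0.33 (SE 0.30), and the editing proteins OTP85 and OTP84 at -0.58 (SE 0.52) and 0.36 (SE 0.32), the ends of the list. PGRL1B, of the cyclic route that does not use NDH and the 1 of 5 such genes tested, was at 0.049 (SE 0.17).

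The profiles over 6 arrays that were nearest to the mean of the ndh genes were listed as a description. Likeness was measured as the root mean square difference between log2 values, each centred on its own mean, over 9971 named probe sets other than the ndh genes, of which 0.592% were plastid-encoded. The nearest was COS1, the last enzyme but one of riboflavin synthesis, with a difference of 0.042. It had 516.6, 566.2 and 441.1 in pif1-2, against 662.6, 744.6 and 679.4 in Wt. GSTL3, of the glutathione transferase family, was at 0.074, and the remaining 6 of the nearest 8 were AT3G58560, AT5G45620, AT5G20160, AT1G08280, AT5G02740 and AT3G60520, at 0.058 to 0.075. Of the 8, 0 were plastid-encoded, which says little given the share of 0.592% among the probe sets searched. The ndh genes themselves lay 0.126 (ndhH) to 0.278 (ndhC) from their own mean. These distances cannot be compared with those of the 8, which were picked as the nearest of 9971 probe sets.

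Markers of other parts of the seedling were tested for few genes, since few were named in the annotation. OLEO3, an oleosin listed as a seed marker and the 1 of 10 seed markers tested, had 840.6, 882.6 and 1036 in pif1-2, against 1477, 1757 and 1638 in Wt (log2 difference -0.81, SE 0.14, limma adjusted p = 0.152). The groups did not overlap, and its part in the ndh result was not tested. RCA, Rubisco activase and the 1 of 8 green-tissue markers tested, had 4288 to 6356 in pif1-2 and 5033 to 6967 in Wt. The summed signal of the 3 of 5 root markers tested, AT1G30870, EXPA7 and EXPA18, was 417 to 858 in pif1-2 and 431 to 891 in Wt. None of these tested markers was at 0 on any array. The root sum was lowest on pif1-2 replicate 1 and next lowest on Wt replicate 1, and its part in the ndh result was not tested.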

How the data were processed

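RNA of 6 seedling samples was hybridised to 6 arrays from 20 µg of total RNA each, per the labels. The deposited values are MAS5 intensities per probe set, named in the submitters' processing notes without version or settings, and the authors had scaled each array to a 2% trimmed mean of 500, as the values show. The standard Affymetrix labelling primes on poly(A), which plastid RNAs carry mainly as a mark for decay, and what share of each ndh RNA was labelled was not tested. The 64 control probe sets were set aside from 22810, arrays were rescaled over the remaining probe sets to that same trimmed mean, 5051 probe sets averaging under 50 were dropped, and values were taken as log2(signal + 16). Groups came from the sample titles, and limma 3.58.1 (R 4.3.3, eBayes with an intensity trend) compared them, two-sided, adjusted over all 17695 probe sets, at a threshold of 0.05. The fit was run on simulated data with normal noise and changes larger than any ndh difference. That run does not show how well differences of the size seen here would be found. Exact permutation tests used scipy 1.17.1.

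Gene names came from the annotation of the platform (13513 with 1 gene, 503 with several, 8730 not listed), and gene order came from RefSeq TAIR10.1. Of several probe sets of a listed gene the brightest was used. The members, lists and tests were chosen with earlier results of these data known. Genes named are all ndh genes, tested members of lists of related genes, and the 8 nearest profiles. psbD, petG and psbA were named after their values were seen, and the pairs of neighbouring genes were compared after the data were seen. The labels do not say whether replicates were grown separately, so the p-values rest on the spread of these samples alone, and the number of arrays limits the precision. Alternatives covered pseudocount, scaling, filter, variance model, array weights, the replicate number and leaving out arrays.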

Additional observations from a re-analysis of the deposited data

How the results depend on the processing

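Under 18 alternatives for each gene (17 for ndhF, which a filter at 100 removes), every ndh gene kept the sign of its difference except ndhC, ndhA and ndhI, at 0.10, 0.061 and 0.016 without pif1-2 replicate 3. Leaving out each array in turn gave -0.43 to 0.10 for ndhC, -0.16 to 0.061 for ndhA and -0.27 to 0.016 for ndhI, the lowest values without pif1-2 replicate 2. The number of ndh genes called was 0 in all alternatives but one: with the replicate number as a block 3 were called lower, ndhK (limma adjusted p = 0.0208), ndhJ (0.0231) and ndhG (0.0356), and 45 of all probe sets were called, against 2 without the block. In the other alternatives the adjusted p of these 3 genes was at least 0.0899, and their unadjusted p was 0.00901 or less. The replicate numbers are shared by the labels only. Deviations from the group means correlated at 0.251, 0.0988 and 0.088 between arrays of the same number, and every array correlated best with its own number, a hint from the data and not from the design.

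The number of ndh genes lower at an unadjusted p under 0.05 was 3 to 6 when 1 array was left out, 3 without pif1-2 replicate 3, and 3 without pif1-2 arrays 2 and 3 together, an alternative chosen after seeing the data, in which the spread of the mutant is taken from Wt and the median of the ndhC operon was -0.54. The number of genes was 4 with median centring, quantile normalization, no filter or a filter at 100, where ndhE missed (unadjusted p = 0.0564, 0.056, 0.0592 and 0.0516). The number with no overlap was 5 to 9, and it was 9 only where pif1-2 replicate 2 was left out. Groups with fewer arrays separate more easily. On pif1-2 replicate 1 alone, 24.3% of all probe sets lay below the lowest Wt array, against 6.58% for all pif1-2 arrays. The median over all ndh genes was -0.48 to -0.28. ndhF, near the filter, is limited by its signal over background.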

Other observations

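Mitochondrial complex I is the relative of the plastid NDH complex in the respiratory chain, and part of it is encoded in the mitochondrial genome by the nad genes. Of 9 such genes listed, 7 were tested, with a median log2 difference of 0.013, pif1-2 minus Wt. Of the 7, 3 were below 0, beside 49.9% of all probe sets. None passed with limma over all probe sets, and none had an unadjusted p under 0.05. nad9, a peripheral subunit and the counterpart of ndhJ, had a signal of 186 ± 33.6 in pif1-2 and 124 ± 66.4 in Wt (SD, n = 3 each, log2 difference 0.64, SE 0.34, limma adjusted p = 0.703). Its arrays were 195, 149 and 214 in pif1-2, against 187, 132 and 54.6 in Wt. The genotypes overlapped, and Wt replicate 3 was near the limit of 50. nad1, the counterpart of ndhA, had 151 ± 35.2 in pif1-2 and 195 ± 4.88 in Wt (-0.36, SE 0.21, adjusted p = 0.735), and all pif1-2 arrays lay below all Wt arrays, as in 6.58% of all probe sets. The other 5 nad genes overlapped between the genotypes.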
